A study of Ovis aries with 15 samples.

Results

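Midkine and a set of retinoid binding and retinoid responsive genes were followed in ovine longissimus dorsi, a back muscle, through late fetal and early postnatal development. The set held 7 genes, which were the growth factors MDK (midkine) and PTN (pleiotrophin), the cellular retinoic acid binding proteins CRABP1 and CRABP2, the plasma retinol carrier RBP4, and the retinoic acid receptor responders RARRES1 and RARRES2. Every probe set whose only annotated symbol was a member was taken, which gave 7 probe sets, 1 for each gene, out of 13292 probe sets that named 9155 genes by a single symbol. A probe set was taken as measured where 3 or more arrays reached a MAS5 signal of 50, and all 7 members met this, as did 15998 of 24016 probe sets. MDK and CRABP1 were chosen by their known fall between 120 d and 150 d, so values across birth are given for every member as a description, without a test.

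Muscle came from fetuses at 80 d, 100 d and 120 d of gestation, from newborn lambs (150 d of development) and from young lambs at 230 d. The animals were Dorset/Suffolk/Rambouillet cross-bred sheep, for which neither a treatment nor a genotype was stated, and each stage held 3 different animals with 1 array each. Stages at 80 d, 150 d and 230 d were sampled from males, whereas 1 of the 3 animals at 100 d and at 120 d was female, and which array was the female's was not given. The RNA was of sheep and the array of cattle, so a low signal could also come from a mismatch between probe and transcript, and levels of different genes were not compared. The tissue was whole muscle, in which fewer cells of a type and less RNA per cell cannot be told apart.

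Midkine and pleiotrophin form a small family of secreted, heparin-binding growth factors that are abundant in embryonic tissues, and midkine was first found as a gene induced by retinoic acid. Retinol travels in the blood bound to RBP4, is oxidised in cells to retinoic acid, and is then held in the cytosol by the CRABP proteins. Retinoic acid acts through nuclear RAR and RXR receptors, and the RARRES genes were named as genes that respond to a retinoid in cultured skin.

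MDK was abundant in fetal muscle and not measurable after birth. Its signal on the 3 arrays was 1317.8, 1169.2 and 1577.3 at 80 d, 1296.6, 759.4 and 1023.5 at 100 d, 751.1, 560.5 and 669.7 at 120 d, 29.6, 4.9 and 24.8 at 150 d, and 24.4, 11.5 and 32.4 at 230 d. All 9 fetal arrays gave 560.5 or more and all 6 postnatal arrays lay under 50, where a signal was not taken as measured. Mean signal was 19.8 ± 13.1 in newborns and 660 ± 95.6 in 120 d fetuses (SD, n = 3 each), at least 13.1-fold lower at 150 d when 50 was used in place of the low signals. The fitted log2 difference of -5.42 for 150 d against 120 d depended on those low values and was -4.60 without the second newborn array. Within fetal life the 3 values at 120 d lay below all those at 100 d and at 80 d. The log2 difference of -1.04 for 120 d against 80 d did not pass the test (SE 0.57, adjusted p = 0.405). Signals at 230 d and 150 d overlapped, with all of them under 50.

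PTN, the relative of midkine that is also known as a neurite outgrowth factor, was measured on all 15 arrays. It gave 1565.7, 3371.0 and 2733.6 at 80 d, 1034.5, 1325.2 and 1197.5 at 100 d, 826.8, 1071.7 and 2022.5 at 120 d, 330.2, 174.7 and 652.6 at 150 d, and 228.3, 217.0 and 147.2 at 230 d. Unlike MDK it remained above 50 in every postnatal animal, although no postnatal value reached the lowest fetal value. Geometric mean signal was 3.62-fold lower at 150 d than at 120 d (log2 -1.86), and 6.26-fold lower at 230 d than at 120 d. The 3 values at 100 d were below all 3 at 80 d, but this difference did not pass (log2 -1.05, SE 0.46, adjusted p = 0.58). Newborn and lamb values overlapped, and the log2 difference of -0.79 for 230 d against 150 d did not pass (adjusted p = 0.33).

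**Figure D1:**
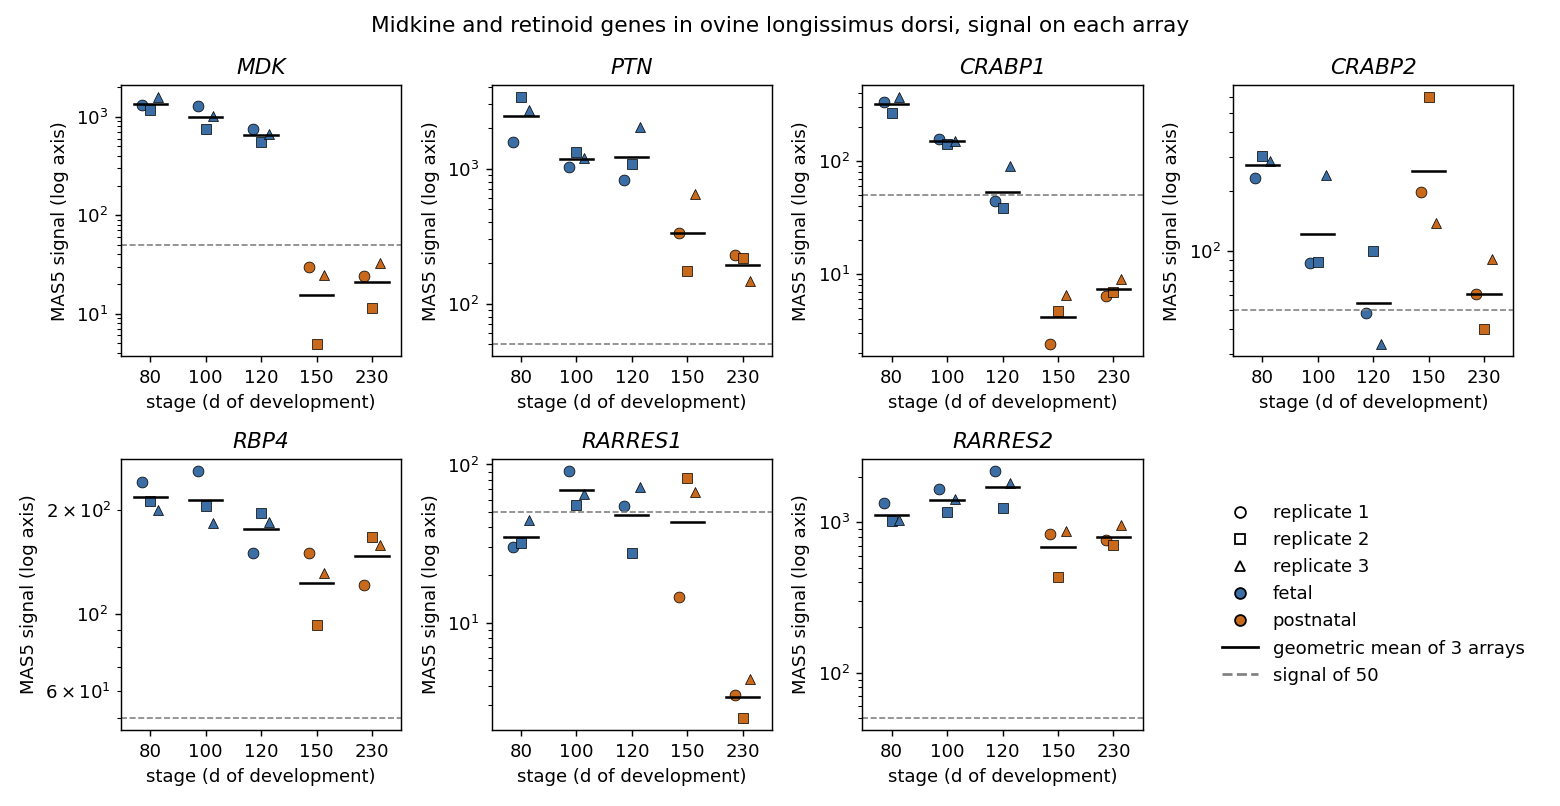
MAS5 signal (log axis, each panel with its own range) of the 7 genes against stage, with 1 point for each of 3 arrays, a bar at the geometric mean and a dashed line at a signal of 50. MDK and CRABP1 are under 50 on all 6 postnatal arrays, CRABP2 is highest in 1 newborn at 600.2, and RARRES1 is under 5 in all 3 lambs.

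CRABP1, a cytosolic protein that binds retinoic acid and is linked with its breakdown, fell between 80 d and 120 d of fetal life. Its signals were 334.0, 269.6 and 368.4 at 80 d, 158.2, 143.2 and 152.2 at 100 d, 44.0, 38.2 and 90.7 at 120 d, 2.4, 4.7 and 6.6 at 150 d, and 6.4, 6.9 and 9.1 at 230 d. The values of the 3 fetal stages did not overlap with each other, and 2 of the 3 values at 120 d were already under 50. The fall at 120 d against 80 d was 6.01-fold (log2 -2.59, SE 0.37, 95% interval -3.39 to -1.79, limma adjusted p = 0.0019). This was the single member of the 7 past the test in that comparison, in which 1.31% of all probe sets passed and 0.381% passed as lower. It did not pass without the third array at 80 d or without the first or the second at 120 d, with adjusted p of 0.0114 to 0.0120 and log2 differences of -2.49 to -2.35, or in a fit of the 6 arrays of these stages alone (adjusted p = 0.021). The 2 steps on their own did not pass, with log2 -1.09 at 100 d against 80 d (adjusted p = 0.40) and -1.50 at 120 d against 100 d (adjusted p = 0.21). Across birth all signals lay under 50 at 150 d, which allowed only the statement that CRABP1 was at least 1.07-fold lower than at 120 d.

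CRABP2, which carries retinoic acid to its nuclear receptors, followed another course. Signals were 234.1, 301.8 and 286.8 at 80 d, 86.4, 87.8 and 241.5 at 100 d, 48.4, 99.4 and 33.7 at 120 d, 198.4, 600.2 and 138.5 at 150 d, and 60.6, 40.0 and 90.6 at 230 d. It was high at 80 d and at 150 d and low at 120 d and 230 d, and it was the only member whose newborn values all lay above those at 120 d. Geometric mean signal was 4.67-fold higher at 150 d than at 120 d (log2 2.22), and the log2 difference was 1.60 without the second newborn array. At 120 d 2 of the 3 values were under 50, as was 1 at 230 d. Differences with these stages thus rest partly on signals not taken as measured. The 3 values at 230 d lay below all 3 at 150 d (log2 -2.08, SE 0.57, adjusted p = 0.049), and those at 120 d lay below all 3 at 80 d (log2 -2.32, SE 0.57, adjusted p = 0.043). Neither difference passed at the adjusted p of 0.01 that was used throughout.

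RBP4, the carrier of retinol in plasma, varied least, with an SD of 0.39 over the 15 log2 signals, where RARRES2 came next with 0.60. It gave 240.7, 212.6 and 200.1 at 80 d, 258.9, 204.9 and 183.0 at 100 d, 149.7, 195.6 and 184.4 at 120 d, 150.1, 93.0 and 131.4 at 150 d, and 120.8, 166.8 and 157.7 at 230 d. Every array was above 50, and stages next to each other in the order of their means overlapped throughout. The 95% interval of the log2 difference was -0.79 to 0.18 for 120 d against 80 d and -0.22 to 0.75 for 230 d against 150 d. Geometric mean signal was 1.43-fold lower at 150 d than at 120 d, with values that overlapped.

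RARRES1, which encodes a membrane protein related to the protease inhibitor latexin, was near the lower limit of measurement at most stages. Its signals were 30.0, 31.7 and 44.3 at 80 d, 90.9, 55.2 and 65.4 at 100 d, 54.7, 27.5 and 72.3 at 120 d, 14.5, 82.2 and 66.7 at 150 d, and 3.5, 2.5 and 4.4 at 230 d. All 3 lambs were under 5, and 2 of the 3 newborns were above 50. The fitted log2 difference of -3.67 for 230 d against 150 d passed the test (SE 0.56, limma adjusted p = 0.0030), in a comparison in which 2.03% of all probe sets passed and 1.08% passed as lower. The geometric means of 3.38 at 230 d and 43.0 at 150 d both lay under 50, so neither a fold nor a measured fall is given. The call was lost without the second or the third newborn array or without the first or the second lamb array, with adjusted p of 0.0101 to 0.0130 and log2 differences of -3.70 to -3.20. It was also lost with 16 added before log2 (log2 -1.69, adjusted p = 0.0126) and with the 6 arrays alone (adjusted p = 0.103). The log2 difference of -0.15 for 150 d against 120 d had no settled sign, being 0.63 without the first newborn array and 0.15 without the third array at 120 d.

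RARRES2 encodes chemerin, a secreted chemoattractant and adipokine. It gave 1343.6, 1021.9 and 1030.4 at 80 d, 1671.6, 1161.3 and 1438.3 at 100 d, 2191.4, 1248.3 and 1834.3 at 120 d, 836.8, 432.6 and 879.6 at 150 d, and 757.5, 706.9 and 964.5 at 230 d. Among the 7 genes it alone had its highest mean at 120 d, with 1758 ± 476 (SD, n = 3), and all 6 postnatal values lay below all 9 fetal values. The log2 difference of 0.61 for 120 d against 80 d did not pass (SE 0.30, adjusted p = 0.33). Geometric mean signal was 2.51-fold lower at 150 d than at 120 d and 2.13-fold lower at 230 d than at 120 d.

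Across birth MDK passed out of the measured range, PTN and RARRES2 were lower but measured, and CRABP2 was higher. CRABP1 was under 50 on all arrays at 150 d, and 2 of its 3 values at 120 d were already under 50. Of the 7 genes 6 had a lower mean log2 signal at 150 d than at 120 d, and for 5 the values of the 2 stages did not overlap, with MDK, PTN, CRABP1 and RARRES2 lower and CRABP2 higher. Among all probe sets 37.3% did not overlap between these stages and 11.2% passed the test, and since the members were chosen with this interval known nothing is read from their count. The median log2 difference of all probe sets was -0.15 at 150 d against 120 d. At 230 d against 120 d, which shares the 120 d arrays, 5 members did not overlap and all were lower, now with RARRES1 in the place of CRABP2, beside 41.7% of all probe sets.

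In the other comparisons 2 to 4 members did not overlap. At 100 d against 80 d, 3 members did not overlap (PTN and CRABP1 lower, RARRES1 higher), beside 19.1% of all probe sets. At 120 d against 100 d these were MDK and CRABP1, both lower, beside 16% of all probe sets. No member passed the limma test in either interval, in which 0.125% and 0.0563% of all probe sets passed, while 2 and 1 members had an unadjusted p under 0.05. With the moderated F-statistic over the 4 intervals PTN and CRABP1 passed at 100 d against 80 d, where 836 of all probe sets passed. With it CRABP1 also passed at 120 d against 100 d, where 1124 of all probe sets passed. This statistic takes in 150 d against 120 d, the interval by which MDK and CRABP1 were chosen, so nothing is read from these calls. At 120 d against 80 d, 4 members were lower without overlap (MDK, CRABP1, CRABP2 and RBP4), beside 26.7% of all probe sets. At 230 d against 150 d there were 2, CRABP2 and RARRES1, beside 24% of all probe sets.

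**Figure D2:**
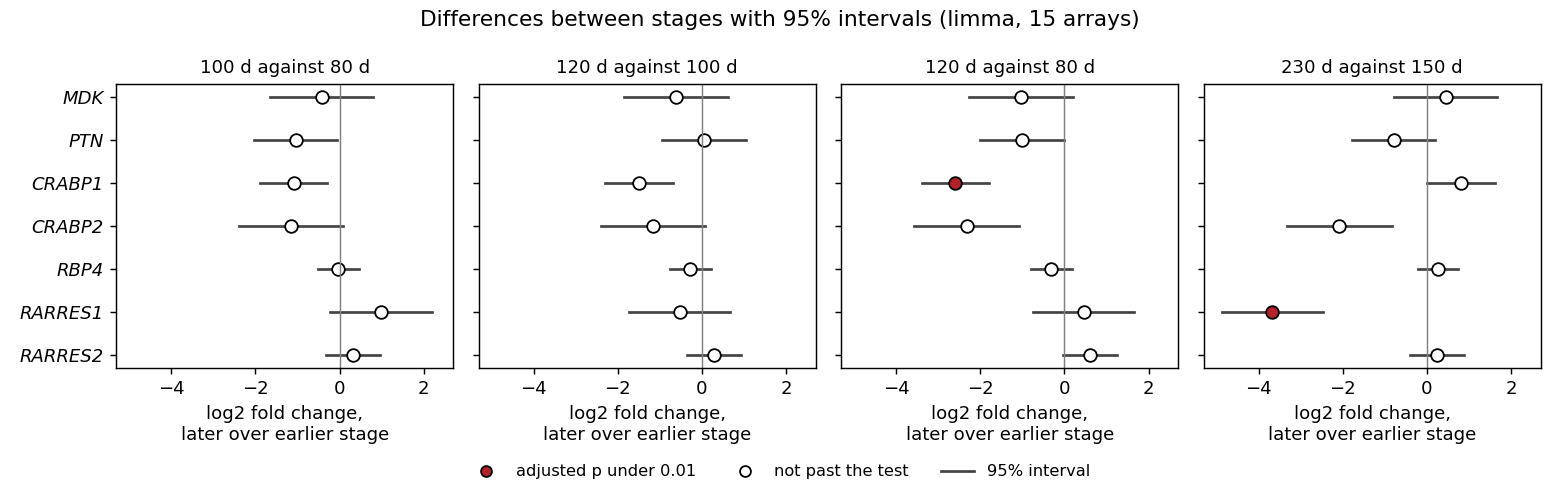
Fitted log2 fold change (x axis, later over earlier stage) of each gene in the 4 tested comparisons, with 95% intervals, filled where the adjusted p was under 0.01. The 2 filled points are CRABP1 at 120 d against 80 d (-2.59) and RARRES1 at 230 d against 150 d (-3.67), for which the geometric means of both stages were under 50.

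In the order of stage means MDK ran 80 d, 100 d, 120 d, 230 d and 150 d, and in that order 80 d and 100 d overlapped, as did 230 d and 150 d. CRABP1 had the same order, with overlap only between 230 d and 150 d. For PTN the only neighbours that did not overlap were 100 d and 150 d. For RARRES1 and for RARRES2 they were 80 d and 230 d, and for CRABP2 and RBP4 all neighbours overlapped. Over the 7 genes, 80 of the array values were at least 50 and 25 were under it. Values just above this limit were 54.7 and 55.2 for RARRES1 and 60.6 for CRABP2, and those just below it were 48.4 for CRABP2, 44.3 for RARRES1 and 44.0 for CRABP1.

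The second newborn array was the lowest of the 3 newborns for MDK, PTN, RBP4 and RARRES2 and the highest for CRABP2 and RARRES1. Its median signal of 51.4 and its share of 50.7% of probe sets at 50 or more were the lowest of the 15 arrays, which reached 69.4 and 58.1%. Without it the log2 difference for 150 d against 120 d was -1.39 for PTN and -1.00 for RARRES2, each in the direction given above.

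The receptors of midkine and pleiotrophin were a list of 20 genes, of which 11 had a probe set with their symbol alone and 10 were measured. At 150 d against 120 d, 1 of the 10 fell and none rose, where 6.77% of all probe sets passed as lower and 4.41% as higher. The median log2 difference was -0.62 over the list and -0.08 over all 7553 genes. The gene that fell was SDC2, a heparan sulphate proteoglycan of the cell surface, with 568 ± 26.2 in newborns and 1178 ± 248 in 120 d fetuses (SD, n = 3 each, log2 -1.03, adjusted p = 0.0039). Its other probe set gave -0.34 in this comparison, and the call was lost without the second or the third array at 120 d or without the first or the second at 150 d, with adjusted p up to 0.0204, and with the array medians set equal (log2 -0.91, adjusted p = 0.019), with no filter (adjusted p = 0.0116) and with the 6 arrays alone (adjusted p = 0.043). No gene of this list passed in the other 4 comparisons.

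Genes of retinol uptake and storage numbered 13, of which 8 had a probe set and 4 were measured, and none passed in any of the 5 comparisons. Of the 4, LPL and CD36 had array log2 differences of 0.10 and 0.19 at 150 d against 120 d. By quantitative RT-PCR the study reported a strong rise of both in this interval, and grouped them with genes missing from or not reporting on the array. Their array values are thus not read as an absence of change. STRA6, the cell surface receptor for RBP4, had mean signals of 80.1, 73.3, 76.7, 62.4 and 60.4 from 80 d to 230 d. TTR, which binds RBP4 in plasma, did not exceed 41.4 on any array and was not taken as measured.

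Among 22 genes of retinoic acid synthesis and breakdown 11 were measured and none passed, with a median log2 difference of 0.23 at 150 d against 120 d. ALDH1A1, a retinaldehyde dehydrogenase, had mean signals of 48.2, 64.1, 156, 379 and 503 from 80 d to 230 d. Its log2 difference of 1.18 for 150 d against 120 d missed the threshold (SE 0.35, adjusted p = 0.030). ALDH1A2 and CYP26B1, an enzyme that makes and an enzyme that degrades retinoic acid, had no probe set with their symbol alone in the annotation used here and were not analysed here.

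Of 19 retinoid receptors and cofactors 9 were measured, and 2 fell at 150 d against 120 d with none higher, beside 6.77% of all probe sets lower and 4.41% higher. The median log2 difference was -0.42 over the list, against -0.08 over all genes. These were NCOA1, a coactivator of nuclear receptors, with 924 ± 152 at 150 d and 2159 ± 69.4 at 120 d (log2 -1.24, adjusted p = 0.00043), and CREBBP, a histone acetyltransferase, with 1206 ± 144 at 150 d and 2418 ± 367 at 120 d (log2 -1.00, adjusted p = 0.0022). The other 3 probe sets of NCOA1 gave -1.53, -1.53 and -1.21. NCOA1 passed whichever 1 of the 15 arrays was left out, whereas CREBBP did not pass without the third array at 120 d (adjusted p = 0.0124) or with the array medians set equal (log2 -0.88, adjusted p = 0.019). The receptors themselves did not pass. RARA had mean signals of 432, 382, 399, 265 and 236 from 80 d to 230 d, with log2 -0.60 at 150 d against 120 d (adjusted p = 0.078), and RXRA, RXRB and RXRG had adjusted p of 0.95, 0.96 and 0.38 in that comparison. RARB and RARG had no probe set with their symbol alone.

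Genes known to respond to retinoic acid in other systems were a list of 24, with 13 on the array and 12 measured. At 150 d against 120 d, 3 fell and 1 rose, beside 6.77% of all probe sets lower and 4.41% higher. The median log2 difference was -0.79 over the list, against -0.08 over all genes. The genes that fell were the homeobox gene MEIS1 (log2 -1.16, adjusted p = 0.0013) and the orphan nuclear receptors NR2F1 (log2 -1.49, adjusted p = 0.0012) and NR2F2 (log2 -0.95, adjusted p = 0.0029). The other probe sets of NR2F2 gave -0.26 and -1.46, and its call was lost without the first or the third array at 120 d or at 150 d, with adjusted p up to 0.0130, and with the array medians set equal (log2 -0.82, adjusted p = 0.023). PDK4, a kinase that restrains glucose oxidation and is also switched on by fasting, rose to 4676 ± 3123 at 150 d, against 216 ± 36.4 at 120 d (log2 4.19, adjusted p = 5.2e-05). Its other probe sets gave 2.67 and 2.27.

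MEIS1 was higher again at 230 d than at 150 d (log2 1.04, adjusted p = 0.0080), the 1 gene of this list past the test in that comparison, where 0.944% of all probe sets passed as higher. This call was kept in only 1 of 15 fits that each left out 1 array, the one without the second newborn array, and otherwise had adjusted p of up to 0.0304. It was also lost with the array medians set equal (adjusted p = 0.049). At 120 d against 80 d 2 genes of the list rose, beside 0.931% of all probe sets. These were PDK4 (log2 2.36, adjusted p = 0.0067), whose mean of 41.7 ± 2.21 at 80 d lay under 50 and whose call was kept in 2 of the 15 fits, and the circadian repressor BHLHE40, with 1340 ± 235 at 120 d and 175 ± 47.7 at 80 d (log2 2.95, adjusted p = 0.00029). The other probe sets gave 1.29 and 2.04 for PDK4 and 2.09 for BHLHE40. The list thus held changes in both directions, and none of the lists had a gene past the test at 100 d against 80 d or at 120 d against 100 d. Of 5 genes related to the RARRES proteins, the chemerin receptors among them, only CMKLR2 had a probe set with its symbol alone in the annotation used here, and with a highest signal of 58.1 it was not measured on enough arrays.

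**Figure D3:**
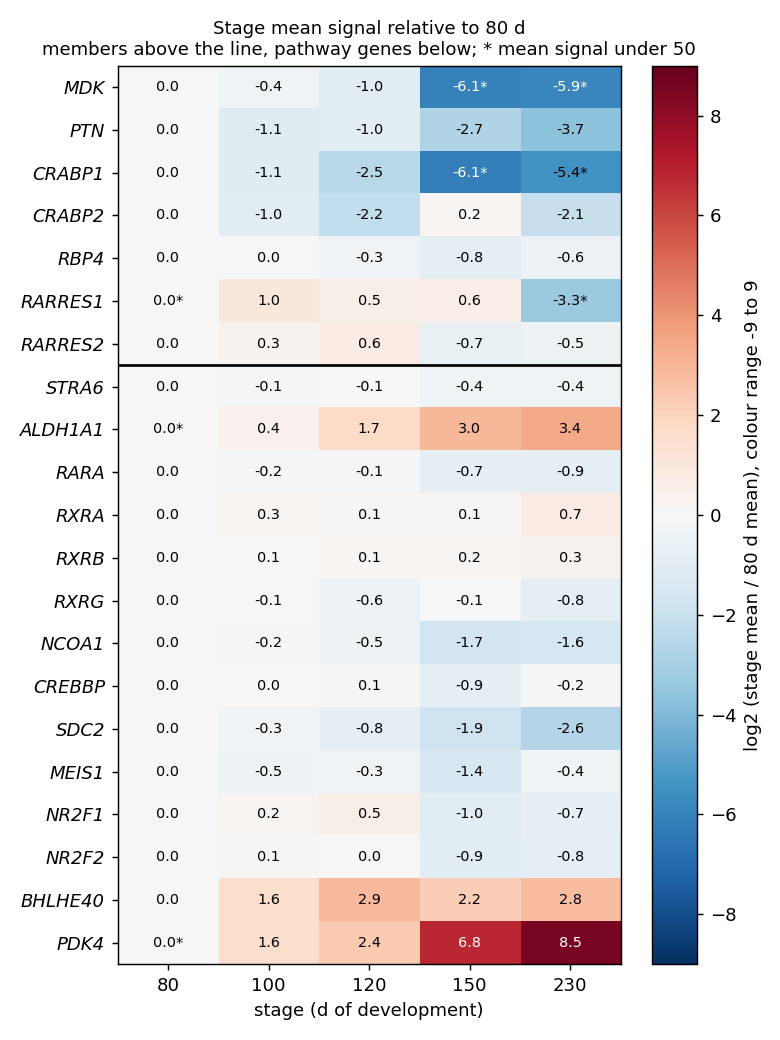
Log2 of the stage mean signal relative to the 80 d mean (colour and number) for the 7 members above the line and 14 pathway genes below it, by stage, with an asterisk where the stage mean was under 50. MDK and CRABP1 are at -6.10 and -6.15 at 150 d, both with means under 50, while the retinoid receptors stay between -0.87 and 0.72 at every stage.

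Genes with the most similar course were taken by Pearson's correlation of log2 signal over the 15 arrays among 7552 other genes, as a description in which all genes share the same arrays and stages. For MDK they were KHNYN, VAT1 and CDKN1C (r of 0.986 each), the last an imprinted inhibitor of cyclin-dependent kinases. For PTN they were IFIT5 (0.967), ECRG4 (0.958) and POSTN (0.951), which encodes the matrix protein periostin. For CRABP1 they were MLLT3 (0.982), VCAN (0.981), which encodes the proteoglycan versican, and PAFAH1B3 (0.979). The closest to CRABP2 was DDX39A (0.940), followed by MLLT11 (0.872) and SRPK3 (0.856), and the closest to RBP4 were ZNF668 (0.944), TUNAR (0.919) and TRIM8 (0.917). For RARRES1 they were TRAM1 (0.936), PSME1 (0.933) and LOC768028 (0.920), and for RARRES2 they were CD34 (0.893), a marker of endothelium and of progenitor cells, PIGS (0.892) and MYO1C (0.890). Between members r for MDK was 0.936 with CRABP1, 0.898 with PTN, 0.829 with RBP4, 0.812 with RARRES2, 0.512 with RARRES1 and -0.01 with CRABP2. MDK and CRABP1 were chosen by the same fall, and their postnatal signals were under 50, so nothing is read from their r. Of the 15 values 6 were under 50 for MDK, 8 each for CRABP1 and RARRES1, and 3 for CRABP2. The similar genes listed for these members thus rest partly on signals not taken as measured.

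Markers of other cells also moved between the stages. The 6 measured muscle fibre markers were above 50 at every stage, and their summed signal ranged over 172226 to 235043 at 230 d and 60555.2 to 81853.9 at 80 d. The summed signal of 6 proliferation markers was 2349.3 to 2647.7 at 80 d, 1808.0 to 2146.1 at 100 d and 1074.4 to 1334.6 at 120 d. It was 590.9 to 1691.9 at 150 d and 529.8 to 701.3 at 230 d. Mean TYMS signal was under 50 from 120 d, and those of CCNB1, CCNB2 and BIRC5 were under 50 at 230 d. Over the fetal stages the means of MDK, CRABP1, CRABP2 and RBP4 also fell in that order, and those of PTN, RARRES1 and RARRES2 did not. For 6 endothelial markers the sum was 3403.8 to 3865.3 at 80 d, 5513.1 to 6518.8 at 120 d and 1761.0 to 3300.2 at 150 d. It was lower at 150 d than at 120 d, as MDK, PTN, CRABP1 and RARRES2 were. Of the 6, 4 fell in this comparison (PECAM1, CDH5, TEK and TIE1) and none rose. The median log2 difference was -1.33, against -0.08 over all genes. For this and the lists that follow, 6.77% of all probe sets passed as lower and 4.41% as higher at 150 d against 120 d. From 80 d to 120 d the endothelial sum rose, as did the mean of RARRES2, while the means of MDK, PTN and CRABP1 fell. The 8 fibroblast markers were all above 50 at every stage, with sums of 43487.3 to 71149.2 at 150 d and 67395.3 to 68330.2 at 120 d. Of these 8, 2 fell at 150 d against 120 d and none rose, beside 6.77% of all probe sets lower and 4.41% higher. The median log2 difference was -0.54, against -0.08 over all genes. The 2 were POSTN (log2 -2.85, adjusted p = 0.0080) and THY1 (log2 -1.34, adjusted p = 0.0026). For 5 Schwann and neural markers the sums were 352.0 to 543.6 at 150 d and 827.8 to 982.2 at 120 d. Of these SOX10 and GAP43 had means under 50 at 120 d, and MBP at 150 d. In this list 1 gene fell at 150 d against 120 d, S100B (log2 -1.56, adjusted p = 0.00074), with a list median of -1.25. For 7 leukocyte markers the sums were 565.0 to 709.5 at 150 d and 677.6 to 785.9 at 120 d. Of the 6 measured, 1 fell and none rose, CD3D (log2 -2.13, adjusted p = 0.0065), with a mean of 13.2 at 150 d. CD3D passed as higher at 230 d against 150 d (log2 3.21, adjusted p = 0.0024), beside 0.944% of all probe sets. For 5 satellite cell and myoblast markers the sums were 669.9 to 1054.4 at 150 d and 877.9 to 1326.3 at 120 d. Mean signal was under 50 at every stage for MYF5, from 120 d for MYMK, and at 150 d and 230 d for CHRNG. Of 6 adipocyte markers LEP and CIDEA were under 50 at every stage, and the sum was 790.4 to 1422.5 at 150 d and 326.7 to 631.2 at 120 d. Of the 5 measured, 1 rose at 150 d against 120 d, FABP4 (log2 2.69, adjusted p = 0.0036), beside 4.41% of all probe sets. Its other probe set gave 5.08. ADIPOQ, at log2 2.53, did not pass (adjusted p = 0.056), with means of 41.4 at 120 d and 233 ± 251 at 150 d. CIDEC, CIDEA and PPARG were at log2 -0.13, -0.40 and -0.76, none past the test. The median log2 difference of -0.13 was that of CIDEC, with means of 39.2 and 34.4, both under 50. Among 8 serum proteins of the liver, where RBP4 is mainly made, AFP, TTR and FGB were under 50 at every stage, and the sum was 2149.9 to 2789.5 at 150 d and 2321.4 to 2646.7 at 120 d. Of the 5 measured, ALB and AHSG had mean signals of 1546 and 638 at 150 d, against 1043 and 593 at 120 d. Neither passed (log2 0.55 and 0.10). The other probe sets of ALB gave -0.22, -1.17, -0.50 and -0.42, and those of AHSG 0.88, 2.08, -0.57 and 0.65. In this list 1 gene fell, APOA1, with 113 at 150 d and 643 at 120 d (log2 -2.52, adjusted p = 0.00037), beside 6.77% of all probe sets. The part of these cell types in the members' values was not tested.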

How the data were processed

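RNA of ovine longissimus dorsi was measured on 15 Affymetrix bovine arrays, and the deposited values are linear MAS5 intensities, which the authors scaled to 200 on each array. Trimmed means, computed as a check, lay between 197.8 and 198.7. Because the data are from arrays, the number of arrays limits the precision. Replicate arrays differed in log2 signal by a median of 0.256 to 0.469.

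Control probe sets (112) were removed. A probe set was kept, and is called measured, where its signal was at least 50 (0.25 of the scaling target) on at least 3 arrays. Signals under 0.1 were set to 0.1 and log2 was taken. Symbols came from the platform annotation (13292 probe sets with 1 symbol, 86 with several, 10638 with none), and for a gene outside the 7 members the probe set of highest average log2 signal was used. All 15 arrays were fitted with limma 3.58.1 in R 4.3.3 (lmFit, eBayes without trend, 10 residual degrees of freedom), with the Benjamini-Hochberg adjustment within each comparison over all kept probe sets at 0.01. For a single comparison the moderated t is the moderated F-statistic that the study's methods name. The script was tested on simulated data. Where all 3 arrays of a stage were under 50, folds were taken against 50.

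The 7 members, the gene lists and the comparisons were chosen with earlier results of these data known. Named genes were all members, up to 6 genes per list past the test, certain retinoid receptors, carriers and enzymes whatever their result, and the 3 genes most like each member. Alternatives were 2 other scalings, an offset of 16, no filter, a filter on 8 arrays, a trended robust variance, the 6 arrays of the 2 stages alone, the F-statistic over 4 intervals, a replicate block, and leaving out each array.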

Additional observations from a re-analysis of the deposited data

How the results depend on the processing

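The count of members past the test was 0 at 100 d against 80 d, 0 at 120 d against 100 d, 1 at 230 d against 150 d and 1 at 120 d against 80 d. It was the same under both other scalings, no filter, the trended robust variance and the replicate block. Replicate numbers marked different animals, and deviations of arrays with the same number correlated at -0.05 to 0.21 (median 0.03), so they were not taken as pairs; with the replicate block 256 of all probe sets passed at 230 d against 150 d and 172 at 120 d against 80 d, against 324 and 210. With the F-statistic over 4 intervals the member count was 2 at 100 d against 80 d, 1 at 120 d against 100 d and 2 at 230 d against 150 d. In the last of these CRABP1 was among the calls, with all its signals under 50. The F-statistic takes in 150 d against 120 d, the interval by which MDK and CRABP1 were chosen, so nothing is read from these counts. At 230 d against 150 d the member count was 0 with the offset of 16, with the filter on 8 arrays and with 6 arrays alone. At 120 d against 80 d it was 0 with that filter and with 6 arrays alone. The filter on 8 arrays removed CRABP1 and RARRES1, each at 50 or more on 7 arrays. Leaving out 1 array gave 0 to 1 in both comparisons. With the offset of 16 the log2 difference for 150 d against 120 d was -4.31 for MDK and -1.78 for CRABP1, and at 230 d against 120 d it was -4.15, -1.58 and, for RARRES1, -1.74. No member had another probe set to compare.

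Genes of the pathway lists past the test, for which the alternatives were chosen after seeing the data, numbered 0, 0, 7, 1 and 2 at 100 d against 80 d, 120 d against 100 d, 150 d against 120 d, 230 d against 150 d and 120 d against 80 d. With the F-statistic the first 4 counts were 7, 5, 16 and 8. With the trended robust variance the last 3 were 13, 3 and 4. With 6 arrays alone 0 passed at 150 d against 120 d and at 230 d against 150 d. At 230 d against 150 d the count was 0 with either other scaling, no filter or the replicate block, 2 with the offset and 3 with the filter on 8 arrays. At 120 d against 80 d it was 1 with array medians set equal, no filter or the replicate block. Leaving out 1 array gave 4 to 8, 0 to 2 and 1 to 2 in the last 3 comparisons.

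Over all probe sets 836, 1124, 3305 and 1652 passed with the F-statistic in the 4 intervals, against 20, 9, 1789 and 324. With the replicate block 11 and 3 passed in the first 2. In all 5 comparisons, in the order above, 9, 3, 1110, 119 and 127 passed with no filter and 2, 0, 2, 0 and 68 with 6 arrays alone, against 20, 9, 1789, 324 and 210, and with the trended robust variance 39, 33, 592 and 427 passed in all but 150 d against 120 d, which stayed within 1.5 times. At 120 d against 100 d, 19 passed with the offset and 14 with the filter on 8 arrays. Small differences that had not passed changed sign on leaving out an array. The range for RBP4 at 100 d against 80 d was -0.17 to 0.085. The range for PTN at 120 d against 100 d was -0.33 to 0.32. The range for MDK at 230 d against 150 d was -0.38 to 0.92. The range for RARRES2 at 230 d against 150 d was -0.10 to 0.42.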
